A study of Rattus norvegicus with 8 samples.

Results

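Glycolysis is described here through a named set of 10 enzyme genes: Pfkp, Aldoa, Tpi1, Gapdh, Pgk1, Pgam1, Eno1, Eno3, Pkm and Ldha. All 10 were listed in each of the 8 libraries, among 12282 genes listed in any of them. The libraries hold cells of the fracture callus, the repair tissue around a broken bone, from Sprague Dawley rats with a femoral fracture held by a nail. Callus was taken 4 or 12 weeks after fracture, digested with collagenase A for 4 h, and its cells were kept in a dish for 24 h before single-cell sequencing. There were 4 groups at each week: control (untreated by its label), zoledronate alone, and zoledronate joined with either CGRP or magnesium. Per the labels' protocols, zoledronate, a bisphosphonate drug against bone resorption, was given subcutaneously at 0.3 mg/kg each week for 12 weeks before the fracture. CGRP is calcitonin gene-related peptide, a neuropeptide, whose dose and route the sources used here do not give. The nails were of stainless steel or held magnesium, and the protocols do not say which group had which. In what follows "the CGRP library" and "the magnesium library" are the libraries that had zoledronate as well. Each group is 1 library, and the sources used here do not say how many animals are behind it.

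Glycolysis turns glucose into pyruvate in the cytosol and yields ATP without oxygen. Phosphofructokinase commits the sugar to the pathway, aldolase splits it, triose phosphate isomerase, glyceraldehyde phosphate dehydrogenase, phosphoglycerate kinase, phosphoglycerate mutase and enolase carry the products on, and pyruvate kinase makes pyruvate, which lactate dehydrogenase can turn into lactate. Many of these genes are targets of the hypoxia-inducible factor HIF-1, and bone and cartilage cells are known to rely on the pathway. Several steps have more than one gene: Eno1 is the enolase of most tissues, Eno2 that of neurons and Eno3 that of skeletal and heart muscle, and they encode the alpha, gamma and beta subunits of the enzyme.

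Levels are counts of unique molecular identifiers (UMIs, 1 for each captured transcript) summed over all barcodes with at least 5000 UMIs and scaled to counts per 1000000 (CPM). Of 69624 barcodes, 65208 (93.7%) met this, between 6809 and 10370 per library, with 139656712 to 159685281 UMIs per library. The median per kept cell lay between 12742 UMIs (CGRP, week 12) and 20545 (control, week 4). Pairs of libraries shared 13 to 31 barcodes. Fibroblastic markers were high in every library (28724 to 48751 CPM over the 10 genes). Those of macrophages (11.4 to 21.9 CPM) and lymphocytes (0.200 to 2.48 CPM) were low. Smooth muscle markers also had a high sum (10032 to 18370 CPM), but most of it was 1 gene, Tagln. It gave 8311 of 10792 CPM in control at week 4 and 13472 of 18370 CPM in zoledronate at week 12. Each group is 1 library, so no test between groups was run, and treatments or weeks were not treated as replicates of one another. Higher and lower below refer to libraries, and the intervals given are exact 95% intervals for counting error only, so they say nothing of how animals or dishes vary. The UMIs of a gene are not scaled by its length, since each transcript is counted once at its 3′ end. Genes can still differ in how well their ends are captured, so shares of UMIs between enzyme genes are not shares of enzyme.

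The start regions of the enolase genes, whose balance is described below, and of Ldha, which varied most after Eno3, are shown first, since HIF-1 is a known regulator of the pathway. HIF-1 binds the core ACGTG or GCGTG. Each sequence below runs from 250 bases before to 50 bases after a RefSeq start site (GRCr8, 5′ to 3′), and capitals mark every match to either core on either strand. In CACGTG the same core is read on both strands, and it counts as 2 matches.
Ldha (chr1:106507842-106508141, plus strand): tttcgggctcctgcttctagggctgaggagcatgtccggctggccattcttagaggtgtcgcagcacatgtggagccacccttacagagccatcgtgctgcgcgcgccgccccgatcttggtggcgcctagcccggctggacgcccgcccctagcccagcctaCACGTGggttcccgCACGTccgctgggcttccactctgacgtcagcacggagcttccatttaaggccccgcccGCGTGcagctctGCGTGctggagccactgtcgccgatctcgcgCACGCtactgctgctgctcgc
Eno1, downstream of its 2 listed start sites (chr5:166003111-166003410, plus strand): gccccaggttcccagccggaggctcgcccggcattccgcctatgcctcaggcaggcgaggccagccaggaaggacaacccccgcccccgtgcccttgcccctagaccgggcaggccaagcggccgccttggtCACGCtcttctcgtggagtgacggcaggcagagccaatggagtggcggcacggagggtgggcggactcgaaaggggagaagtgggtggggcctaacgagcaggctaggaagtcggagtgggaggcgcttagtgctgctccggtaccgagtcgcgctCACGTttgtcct
Eno2 (chr4:159267171-159267470, minus strand): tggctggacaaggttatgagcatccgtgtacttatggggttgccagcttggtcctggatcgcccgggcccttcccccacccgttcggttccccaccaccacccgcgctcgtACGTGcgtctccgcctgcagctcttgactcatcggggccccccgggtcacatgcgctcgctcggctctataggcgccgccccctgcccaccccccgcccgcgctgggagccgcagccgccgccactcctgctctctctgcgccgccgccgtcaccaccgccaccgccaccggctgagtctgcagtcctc
Eno3 (chr10:55868936-55869235, plus strand): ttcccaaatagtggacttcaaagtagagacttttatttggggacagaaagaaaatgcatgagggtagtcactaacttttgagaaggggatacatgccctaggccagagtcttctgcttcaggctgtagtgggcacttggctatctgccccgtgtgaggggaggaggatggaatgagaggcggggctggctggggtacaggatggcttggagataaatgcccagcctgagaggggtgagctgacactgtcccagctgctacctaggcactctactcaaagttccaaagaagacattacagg

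The Ldha window held 6 matches, 3 to ACGTG and 3 to GCGTG. The Eno1 window shown held 2, the window at its other start site 1, and the Eno2 window 1. The Eno3 window held 0, which says only that these letters are not in this stretch. RefSeq start regions were found for 9 of the 10 members, Pgk1 being the exception, and 6 of those 9 had a match in at least 1 of their windows. Over all 33469 rat start regions of the same length, 19.3% held ACGTG, 29.7% GCGTG and 41.6% at least one of them, so a match is common and is given as a description. These shares are per start region, whereas the members were counted by gene. Aldoa and Eno1 have more than 1 window each, so the 2 counts are not in the same unit.

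Eno3 stood apart from every other member. Its highest level was 17.3 times its lowest, whereas for each of the other 9 this ratio lay between 1.23 (Pgam1) and 1.83 (Ldha). At week 4 Eno3 was at 45.0 CPM in control (43.9–46.0), 15.9 in zoledronate (15.3–16.6), 106 in CGRP (104–108) and 16.1 in magnesium (15.5–16.8). Levels of week 12 were 27.9 CPM in control (27.1–28.8), 9.67 in zoledronate (9.19–10.2), 10.8 in CGRP (10.3–11.3) and 6.13 in magnesium (5.75–6.53). The CGRP library of week 4 was thus the highest by far, the control libraries of both weeks came next, and within each treatment week 12 was below week 4. From lowest to highest, only zoledronate and magnesium of week 4 had intervals that overlapped.

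**Figure D1:**
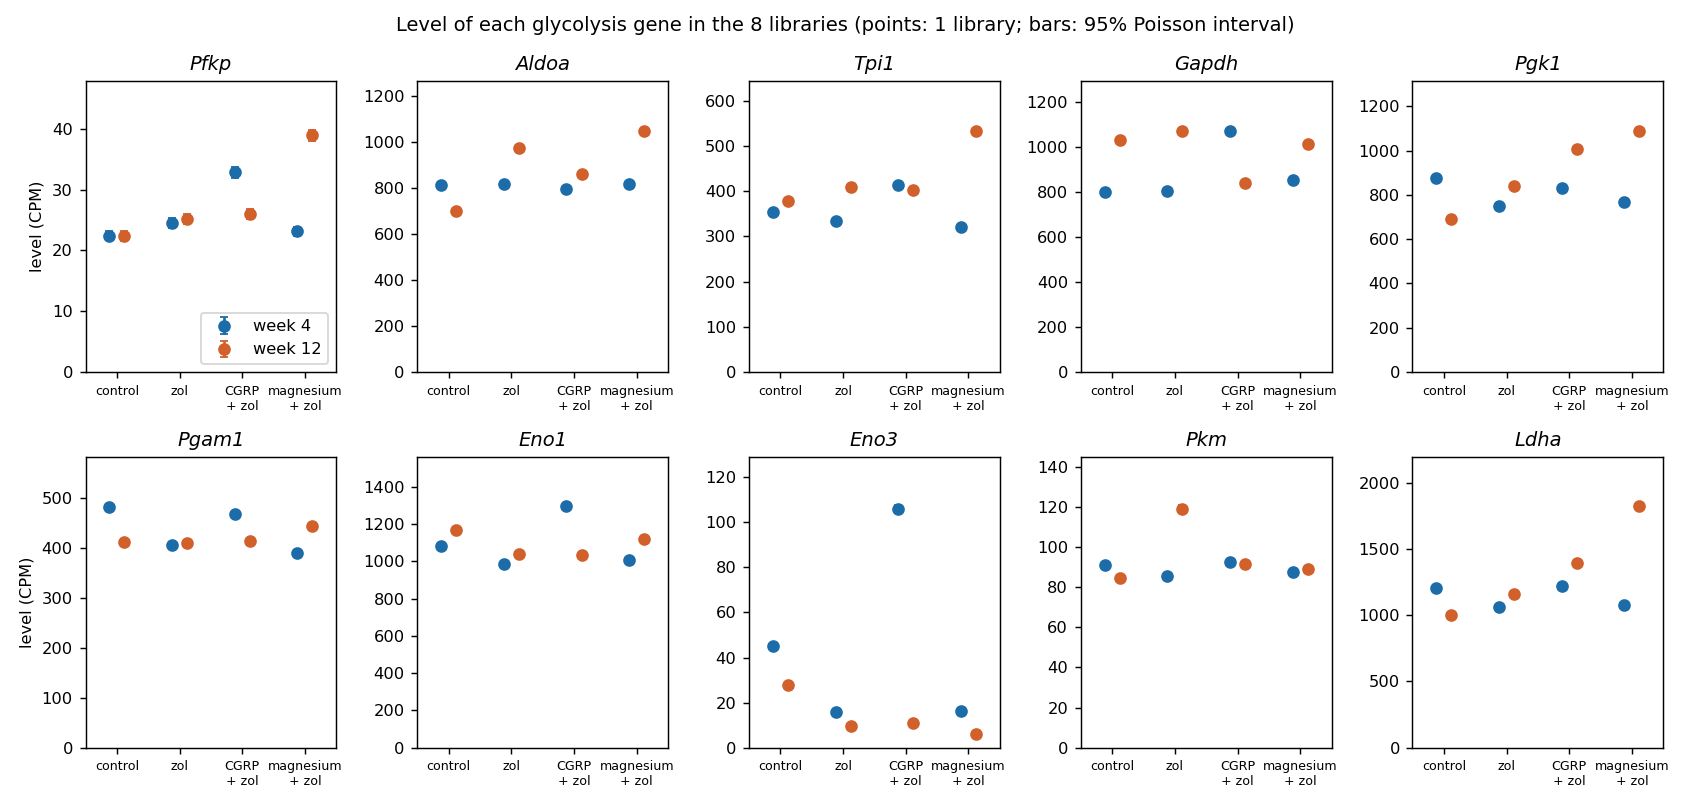
Level of each of the 10 glycolysis genes in CPM (vertical axis, from 0) for the 4 treatments (zol: zoledronate), with 1 point per library, blue for week 4 and orange for week 12, and 95% Poisson intervals that are mostly smaller than the points. Eno3 runs from 6.13 to 106 CPM, with CGRP at week 4 on top, while the highest and lowest points of the other members differ by at most 1.83-fold.

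The balance of Eno1 and Eno3 moved with Eno3, while Eno1 varied little. Eno1 was at 1082, 988, 1296 and 1008 CPM at week 4 (control, zoledronate, CGRP and magnesium, the order used in all such lists below) and at 1171, 1040.2, 1034 and 1121 CPM at week 12. The highest Eno1 level, like the highest Eno3 level, was in CGRP at week 4. Of all UMIs of Eno1 and Eno3 together, Eno3 made up 3.99% in control (3.89–4.08), 1.59% in zoledronate (1.53–1.65), 7.55% in CGRP (7.44–7.66) and 1.58% in magnesium (1.51–1.64) at week 4. The shares of week 12 were 2.33% (2.26–2.40), 0.921% (0.875–0.969), 1.03% (0.983–1.09) and 0.544% (0.510–0.579). Eno1 therefore supplied between 92.4% and 99.5% of the pair in every library, and the share of Eno3 at week 4 exceeded that at week 12 in each of the 4 treatments. Both genes are read in the same cells, so this share does not depend on the scaling between libraries.

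Eno2, which is not one of the 10, went a different way. It was at 63.1, 65.5, 55.6 and 80.0 CPM at week 4, then 28.0, 77.4, 95.7 and 114 CPM at week 12. Set against Eno1, Eno2 made up 5.51% of the pair in control, 6.21% in zoledronate, 4.11% in CGRP and 7.35% in magnesium at week 4, and 2.33%, 6.92%, 8.47% and 9.20% at week 12. Eno3 exceeded Eno2 in CGRP at week 4, the pair was level in control at week 12 (28.0 CPM of Eno2, 27.9 CPM of Eno3), and Eno2 exceeded Eno3 in the other 6 libraries. Magnesium at week 12 had the highest share of Eno2 and the lowest share of Eno3.

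**Figure D2:**
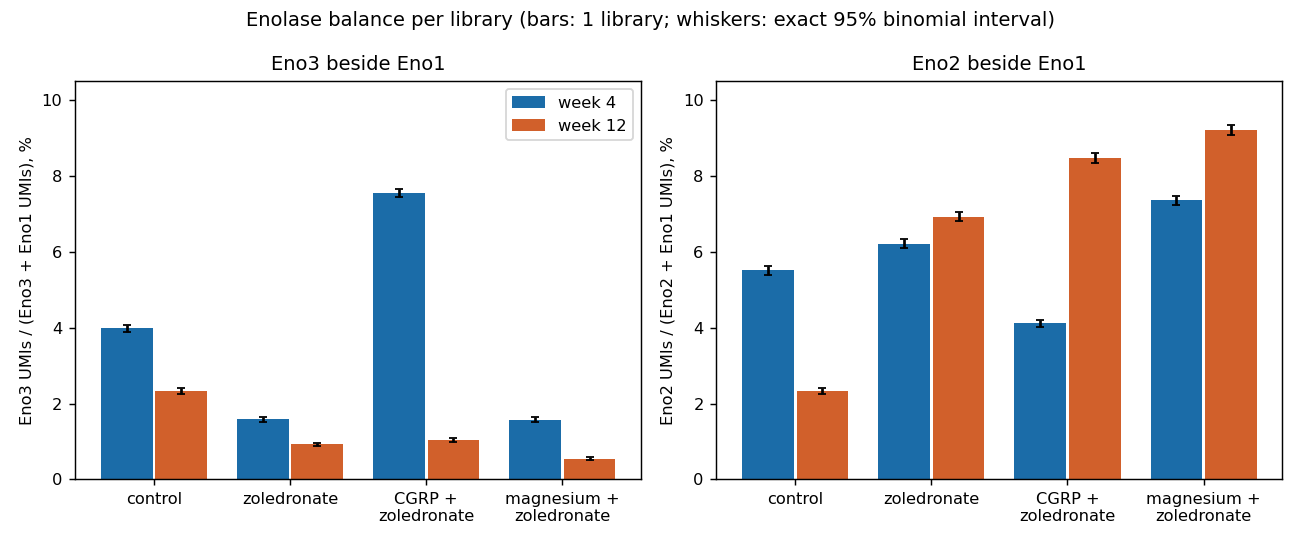
Share of Eno3 in the UMIs of Eno3 and Eno1 (left, %) and of Eno2 in those of Eno2 and Eno1 (right, %) for each treatment at week 4 (blue) and week 12 (orange), 1 bar per library with exact 95% binomial intervals. Eno3 peaks at 7.55% in CGRP at week 4, and Eno2 at 9.20% in magnesium at week 12.

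Eno3 is best known from muscle, so the muscle list was read beside it. Of its 18 genes 10 were listed, and only Acta1 and Cox6a2 had a mean of at least 5 CPM. Ckm, Myog and Myod1 were not listed, and Pgam2, the muscle mutase, was at no more than 0.0644 CPM. Acta1, skeletal muscle actin, was at 31.6, 60.7, 29.5 and 32.1 CPM at week 4, then 174, 108, 78.6 and 147 CPM at week 12, higher at week 12 in every treatment where Eno3 was lower. Cox6a2, a cytochrome oxidase subunit of muscle, had its lowest level (48.3 CPM) in CGRP at week 4, where Eno3 was highest, and its highest (265 CPM) in zoledronate at week 12. Of the 8 muscle genes below that mean, Mylpf, a fast muscle myosin light chain, and Tnnc2, the fast muscle troponin C, also had their highest level in CGRP at week 4, at 2.46 and 0.197 CPM, and the other 6 had theirs in other libraries. The part of muscle cells in the Eno3 pattern was not tested.

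In the current rat annotation the gene Spag7 overlaps Eno3, and the sources used here do not say whether the authors counted reads by strand. Spag7 was at 34.2 to 36.1 CPM in all 8 libraries and so did not move with Eno3. Spsb2 overlaps Tpi1 in the same way and was at 29.3 to 46.6 CPM. Near-identical pseudogene copies of Gapdh and other glycolysis genes are known in rodents, and how the authors' counting shared reads among copies is not given, so levels of such genes carry that uncertainty. Pkm, at 84.7 to 119 CPM, was well below the members before and after it in the pathway, Eno1 and Ldha. A pseudogene that the tables do not list, LOC120094538, overlaps Pkm in the current annotation, and the level of Pkm is uncertain in the same way.

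The cells carrying Eno3 were counted after each cell was thinned to 5000 UMIs. At week 4, 16.5% of cells had an Eno3 UMI in control (15.7–17.4), 6.50% in zoledronate (5.95–7.07), 33.9% in CGRP (32.8–34.9) and 6.62% in magnesium (6.06–7.21). At week 12 these shares were 11.3% (10.6–12.0), 4.08% (3.69–4.51), 4.42% (4.03–4.83) and 2.83% (2.47–3.21). Unthinned, the shares were 39.9%, 19.9%, 62.6% and 20.0% at week 4, then 28.3%, 11.9%, 11.5% and 10.2% at week 12. A cell class known to lack Eno3 was not found in these libraries, so the part of free RNA in these shares was not measured. By comparison Eno1 was found in 98.0% to 99.4% of thinned cells.

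Eno3 was unevenly spread among cells. Its variance over mean per cell, which would be 1 for Poisson counts and moves with the mean, was 1.63, 1.34, 1.71 and 1.25 at week 4, then 1.47, 1.27, 1.19 and 1.06 at week 12. A Poisson spread of the same mean would put a UMI in 42.0% of the cells of CGRP at week 4, against the 33.9% seen, and in 2.91% of those of magnesium at week 12, against 2.83%. Cells with an Eno3 UMI had more Eno1 than the other cells of their library in 8 of 8 libraries, by 1.08 to 1.27 times, and more Tpi1 (1.03 to 1.23 times) and Gapdh (1.08 to 1.18 times) in 8 of 8. Eno2 was lower in the cells with Eno3 in 7 of 8 libraries (0.774 to 1.02 times).

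Of the marker classes tried, cells with a UMI of Dcn or Lum, genes of fibrous matrix, had less Eno3 than other cells in 7 of 8 libraries (73.4 against 113 CPM in CGRP at week 4, 38.5 against 56.0 CPM in control at week 4). They also had less Eno1 and a lower sum of the 10 members in 6 of 8. Cells with Actg2, a smooth muscle gene, had less Eno3 in 6 of 8 (73.9 against 115 CPM in CGRP at week 4). For the osteoblast genes Alpl or Ibsp it was 5 of 8 (76.1 against 110 CPM there), and for Acta1 4 of 8. In CGRP at week 4 Eno3 was at 120 CPM in cells with Hapln1, a cartilage matrix gene, and 102 CPM in those without. Of the 7 libraries read for Hapln1, 1 had less Eno3 in cells with it (control at week 12, 19.5 against 28.3 CPM). The gap could be small, as in magnesium at week 4 (15.7 against 15.2 CPM). Some classes held few cells at week 12: 308, 245 and 153 with Hapln1 in control, zoledronate and CGRP. Only 279 cells of control at week 12 had Dcn or Lum. No intervals were computed for any of these classes, so small gaps may lie within counting error. The shares of these classes themselves differed between libraries, and their part in the Eno3 pattern was not tested. Cells with Dcn or Lum made up 60.1%, 51.3%, 10.49% and 69.8% at week 4, then 3.59%, 74.2%, 54.0% and 13.8% at week 12. Cells with Hapln1 made up 20.6%, 13.1%, 38.8% and 20.2% at week 4. At week 12 they made up 3.96% in control, 2.64% in zoledronate and 1.48% in CGRP, and magnesium was not read for this class.

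Markers of dividing cells went partly with Eno3, and their part in its pattern was not tested. The 5 genes whose pattern over the 8 libraries was most like that of Eno3, by the mean absolute difference of the centred log2 levels, were Hmgb2 (0.57), Cdc20 (0.58), Nasp (0.58), Cks2 (0.59) and H2afx (0.59), against a mean absolute deviation of 0.99 for Eno3 itself, so the likeness was loose. Hmgb2, a chromatin protein, was at 155, 107, 249 and 133 CPM at week 4, then 162, 38.1, 78.4 and 67.6 CPM at week 12. Cells with a UMI of Mki67 or Top2a after thinning, which mark cells in division, made up 25.9%, 16.3%, 37.7% and 18.1% at week 4, then 27.2%, 4.33%, 12.0% and 12.6% at week 12. In these cells Eno3 was higher than in the rest in 8 of 8 libraries, by 1.05 times (CGRP, week 4) to 3.22 times (zoledronate, week 12). In magnesium at week 12 the 1009 such cells were at 7.14 CPM, against 5.72 CPM in the rest. No intervals were computed for these ratios, so the small ones may lie within counting error. Among thinned cells with a UMI of neither gene, Eno3 was at 107 CPM in CGRP and 13.9 CPM in zoledronate at week 4, though a cell with neither UMI at this depth can still be dividing.

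**Figure D3:**
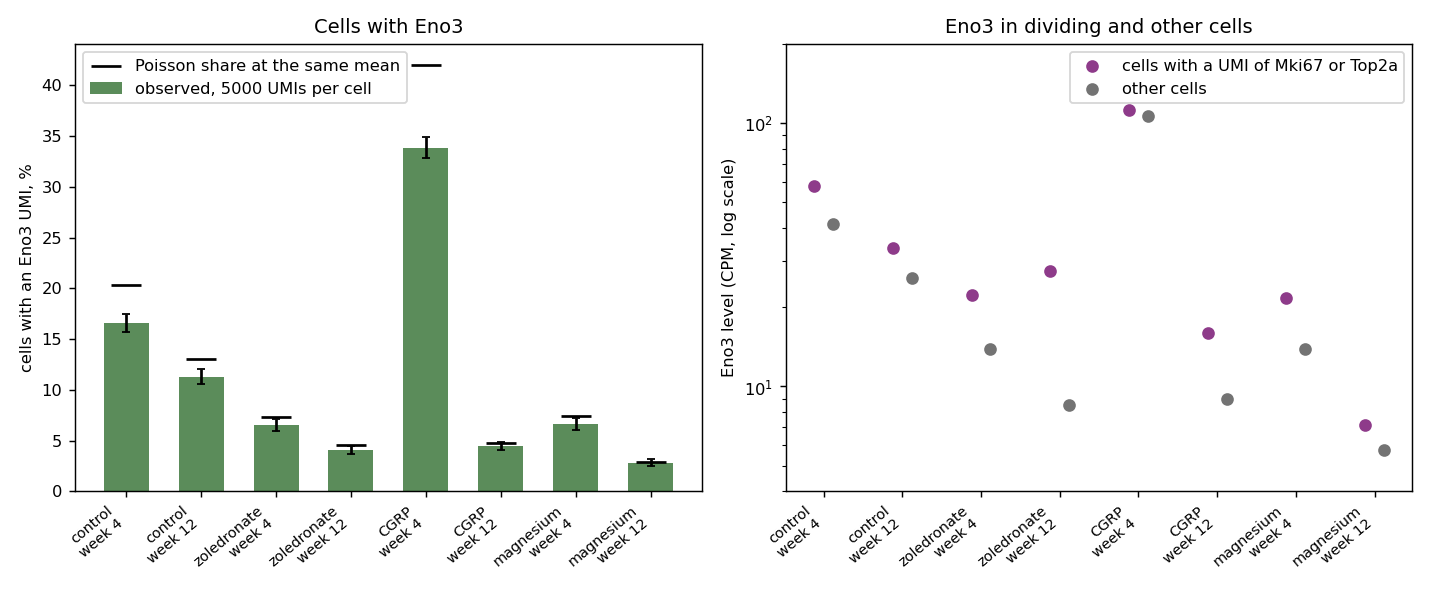
Left, percent of cells with an Eno3 UMI after thinning to 5000 UMIs per cell (bars, exact 95% intervals) and the percent a Poisson spread of the same mean would give (black dashes), for the 8 libraries. Right, Eno3 level in CPM on a log axis in cells with (purple) and without (grey) a UMI of Mki67 or Top2a. As a ratio, the gap is smallest in CGRP at week 4 (112 and 107 CPM) and largest in zoledronate at week 12 (27.4 and 8.49 CPM). In magnesium at week 12 the levels are 7.14 and 5.72 CPM.

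The early steps of the pathway were led by Aldoa. Pfkp, the platelet-type phosphofructokinase, was at 22.4, 24.5, 32.9 and 23.1 CPM at week 4, then 22.4, 25.1, 26.1 and 38.9 CPM at week 12, so that magnesium of week 12 and CGRP of week 4 stood above the other 6. Among those 6 neighbouring intervals overlapped. The lowest (control at week 12, 21.6–23.2) and the highest (CGRP at week 12, 25.2–26.9) were nonetheless clear of each other. Pfkp gave 40.9% to 55.9% of the UMIs of the phosphofructokinase genes, the liver-type Pfkl 37.8% to 52.9% and the muscle-type Pfkm 6.23% to 9.24%. CGRP at week 4 had the largest share of Pfkp and the smallest of Pfkl. Aldoa, the main aldolase, was at 815, 819, 796 and 816 CPM at week 4, then 701, 972, 862 and 1049 CPM at week 12, level at the earlier time and spread at the later. The brain-type Aldoc made up 0.409% (control, week 12) to 1.85% (CGRP, week 12) of the aldolase UMIs. Tpi1, triose phosphate isomerase, was at 354, 334, 413 and 321 CPM at week 4, then 379, 409, 402 and 532 CPM at week 12, with magnesium at week 12 the highest and magnesium at week 4 the lowest.

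The middle steps differed in their order of libraries. Gapdh, the dehydrogenase often used as a reference gene, was at 802, 803, 1072 and 855 CPM at week 4, then 1032, 1074, 842 and 1014 CPM at week 12. It was therefore up to 1.34 times apart between libraries, with CGRP high at week 4 and low at week 12. Pgk1, which makes the first ATP of the pathway, was at 876, 750.3, 830.0 and 767 CPM at week 4, then 689.8, 842, 1008 and 1089.8 CPM at week 12, and no neighbouring pair of its 8 levels had overlapping intervals. Pgam1, the mutase of most tissues, was the steadiest member, at 481, 405, 468 and 390.0 CPM at week 4, then 411, 410.4, 413 and 443 CPM at week 12. Zoledronate, control and CGRP of week 12, together with zoledronate of week 4, had Pgam1 intervals that overlapped from one to the next.

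At the end of the pathway Ldha varied most after Eno3. Ldha, the lactate dehydrogenase subunit that favours lactate, was at 1202, 1063, 1218 and 1074 CPM at week 4, then 999, 1162, 1397 and 1824 CPM at week 12. Magnesium at week 12 was the highest by a wide margin and control at week 12 the lowest. Ldha made up 96.7% to 98.3% of the UMIs of Ldha and Ldhb in all 8 libraries. Pkm, pyruvate kinase, was at 91.1, 85.3, 92.3 and 87.7 CPM at week 4, then 84.7, 119, 91.6 and 89.2 CPM at week 12. Zoledronate at week 12 was the only library whose Pkm interval stood clear of its neighbour's. Magnesium at week 12 had the highest level of 5 of the 10 members (Pfkp, Aldoa, Tpi1, Pgk1 and Ldha), and control at week 12 the lowest level of 5 (Pfkp, Aldoa, Pgk1, Pkm and Ldha).

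Added over the 10 genes, glycolysis took 0.577%, 0.529%, 0.632% and 0.536% of all UMIs at week 4, and 0.552%, 0.606%, 0.609% and 0.721% at week 12. The sum was higher at week 12 in zoledronate (1.15 times) and magnesium (1.35 times), and lower in control (0.956 times) and CGRP (0.963 times). Within a library the sum was 1.06 to 1.17 times higher in cells with a UMI of Mki67 or Top2a, in 8 of 8 libraries. It was lower in the third of cells with the most UMIs than in the third with the fewest in 7 of 8 libraries (0.826 to 1.02 times).

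Zoledronate was compared with control to see how the pathway stood under the bisphosphonate. Here and below, log2 ratios and the 1.5-fold calls use CPM plus 1 (a pseudocount). Folds are of CPM without it, so the 2 differ a little at low levels. At week 4 Eno3 was the only member past 1.5-fold, at 15.9 against 45.0 CPM (2.82-fold lower, log2 ratio -1.44), where 2.12% of the 2408 genes with a mean of at least 50 CPM were past 1.5-fold (1.54% higher, 0.581% lower). The other 9 lay between -0.25 (Pgam1) and 0.12 (Pfkp), with 6 lower and 3 higher. At week 12 Eno3 was again the only one past 1.5-fold, at 9.67 against 27.9 CPM (2.89-fold lower, -1.44), beside 16.8% of all genes (5.81% higher, 11% lower). The other 9 had a median of 0.16 at week 12, led by Pkm (0.49) and Aldoa (0.47), while the median of all genes was -0.089. With the scaling factors of edgeR or DESeq2 both Pkm (0.60 and 0.62) and Aldoa (0.59 and 0.61) passed 1.5-fold, which brings the count to 3. Of the 10 members 8 had a mean of at least 50 CPM; Eno3 and Pfkp were below it and are not among the 2408 genes.

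CGRP was compared with zoledronate, the treatment it was added to, and the zoledronate libraries are shared with the preceding comparison. At week 4 Eno3 was 6.65-fold higher in CGRP (6.37–6.94), at 106 against 15.9 CPM, and again the only member past 1.5-fold, beside 9.47% of all genes (3.45% higher, 6.02% lower). It was also above the control library of that week (45.0 CPM). Of the other 9 members 8 were higher, by up to 0.42 (Gapdh), with a median of 0.21, and Aldoa was at -0.041. The median of all genes was 0.051. At week 12 no member was past 1.5-fold, beside 9.51% of all genes (4.32% higher, 5.19% lower): Eno3 was at 10.8 against 9.67 CPM, Pkm was the lowest (-0.37) and Ldha and Pgk1 the highest (0.26 each). Of 19 measured cell cycle genes, 17 were past 1.5-fold higher in CGRP at week 4, then 15 at week 12. In magnesium against zoledronate at week 12, 15 were so as well.

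Magnesium was compared with zoledronate in the same way. At week 4 all 10 members lay within 0.090 of 0 on the log2 scale, in libraries where 1.04% of all genes were past 1.5-fold (0.457% higher, 0.581% lower), and Eno3 was at 16.1 against 15.9 CPM. At week 12 Ldha was 1.57-fold higher (1.56–1.58), at 1824 against 1162 CPM, and Pfkp 1.55-fold higher (1.49–1.61), at 38.9 against 25.1 CPM, beside 10.6% of all genes past 1.5-fold (5.9% higher, 4.69% lower). Tpi1 (0.38) and Pgk1 (0.37) were higher too, and Pkm was lower (-0.41). Just outside the limit, Eno3 was at 6.13 against 9.67 CPM (-0.58, where 1.5-fold is 0.58 to 2 decimals), and without the pseudocount it passed (-0.66). Pfkp, just inside it, dropped below 1.5-fold under 5 of the 9 alternatives, for example to 0.56 with cells thinned. Of the 19 measured cell cycle genes, 0 were past 1.5-fold at week 4. At week 12, where Eno3 was lower, 15 were past it higher and 0 lower.

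**Figure D4:**
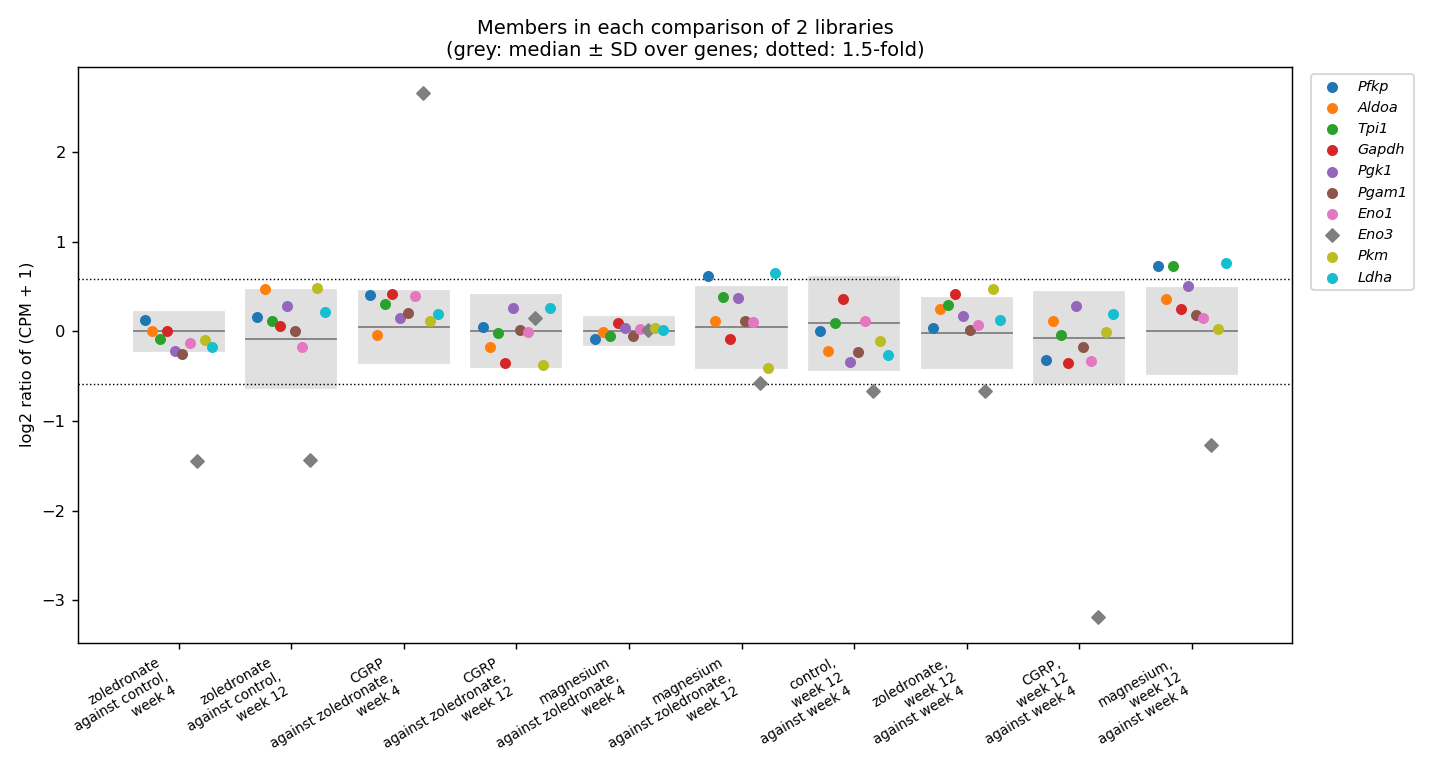
Log2 ratio of CPM plus 1 (vertical axis) for each member in the 10 comparisons of 2 libraries (horizontal axis), Eno3 as grey diamonds and the other members as coloured dots. Grey boxes span the median ± SD over the 2408 genes with a mean of at least 50 CPM, and dotted lines mark 1.5-fold: Eno3 lies below the lower line in 6 comparisons and above the upper line in CGRP against zoledronate at week 4 (2.66).

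Comparing week 12 with week 4 within a treatment, Eno3 was lower in all 4. It was 1.61-fold lower in control, 1.65-fold in zoledronate, 9.81-fold in CGRP and 2.63-fold in magnesium, always past the limit, beside 12.5%, 7.18%, 12.1% and 9.14% of all genes past 1.5-fold in either direction. The genes past it were 8.26% higher and 4.19% lower in control, 3.49% and 3.7% in zoledronate, 5.98% and 6.1% in CGRP, and 5.02% and 4.11% in magnesium. In control and in CGRP 6 of the other 9 members were lower at week 12 and 3 higher, none past 1.5-fold. In zoledronate and in magnesium all 9 were higher at week 12. In zoledronate they ranged from 0.019 (Pgam1) to 0.47 (Pkm), none past 1.5-fold. In magnesium 3 were past it: Ldha at 1824 against 1074 CPM (0.76), Tpi1 at 532 against 321 CPM (0.73) and Pfkp at 38.9 against 23.1 CPM (0.73). These comparisons reuse the libraries of the preceding ones, so they are other views of the same values.

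The other genes of the pathway were read from a list of 21, of which 19 were listed and 8 had a mean of at least 5 CPM. Hk2, the inducible hexokinase, was at no more than 0.989 CPM, so Hk1 was the hexokinase seen, at 34.3 to 53.6 CPM. In zoledronate against control at week 12, 3 were past 1.5-fold higher (Pfkl, Aldoc and Eno2) and 2 lower (Hk1 and Adpgk), beside 5.81% higher and 11% lower among all genes with a mean of at least 50 CPM. In magnesium against zoledronate at week 12, Hk1 was past 1.5-fold higher and none lower, beside 5.9% and 4.69% of all genes. Aldoc, at 13.5, 12.2, 8.72 and 12.3 CPM at week 4, then 2.88, 14.4, 16.3 and 18.4 CPM at week 12, had its low value in control at week 12, as Eno2 did.

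Of 6 measured genes for glucose and lactate transport and Ldhb, 3 were past 1.5-fold higher in zoledronate than in control at week 12 and 3 were so, with Slc16a7 lower, in magnesium at week 12 against week 4. Of all genes with a mean of at least 50 CPM, 5.81% were past it higher and 11% lower in the former comparison, and 5.02% and 4.11% in the latter. This list and those below were read from a mean of 5 CPM, so their genes can lie below the level of that background. Slc16a3, which exports lactate, was at 29.0, 33.4, 23.9 and 33.9 CPM at week 4, then 6.22, 39.4, 31.0 and 64.2 CPM at week 12. Slc2a1, the common glucose transporter, was at 35.0, 33.1, 26.7 and 36.2 CPM at week 4, then 22.0, 48.6, 41.2 and 55.5 CPM at week 12. Both were highest in magnesium at week 12 and lowest in control at week 12, as Ldha was.

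Among 15 measured hypoxia genes outside glycolysis, 7 were past 1.5-fold higher and none lower in zoledronate against control at week 12 (median 0.55), and 5 were lower and 2 higher in control at week 12 against week 4 (median -0.46). Of all genes, 5.81% were higher and 11% lower in the former comparison, and 8.26% and 4.19% in the latter. In CGRP at week 12 against week 4, 7 were higher and 1 lower (median 0.55), beside 5.98% and 6.1% of all genes. Of the 9 members other than Eno3, 6 were lower there, none past 1.5-fold. In CGRP against zoledronate at week 4, 1 was higher and 3 lower (median -0.32), beside 3.45% and 6.02% of all genes. Of the same 9 members 8 were higher there, none past 1.5-fold. In magnesium against zoledronate at week 12, 3 of the 15 hypoxia genes were higher and 1 lower (median 0.097), beside 5.9% and 4.69% of all genes. For magnesium at week 12 against week 4, 4 were higher and 2 lower (median 0.34), beside 5.02% and 4.11% of all genes. Hif1a, which encodes the regulated subunit of HIF-1, was at 82.3, 95.8, 67.2 and 86.4 CPM at week 4, then 59.7, 139, 178 and 230.0 CPM at week 12, lowest and highest in the same libraries as Ldha. Bnip3, a mitophagy gene induced by hypoxia, was at 222, 220.2, 133 and 233 CPM at week 4, then 99.0, 418, 281 and 371 CPM at week 12. Car9, a carbonic anhydrase also induced by hypoxia, ran otherwise, at 124 CPM in control and 30.8 CPM in magnesium at week 12. Pdk3 encodes a kinase that restrains pyruvate dehydrogenase. Of 9 measured genes for pyruvate entry into mitochondria, it alone was past 1.5-fold in magnesium against zoledronate at week 12. It was higher (62.6 against 20.9 CPM), beside 5.9% of all genes higher and 4.69% lower. Pdk3 was also past it in CGRP against zoledronate at week 12 (48.9 CPM in CGRP), beside 4.32% higher and 5.19% lower. Of the 7 pentose phosphate genes, Pgd alone was past 1.5-fold in magnesium against zoledronate at week 12, at 263 against 134 CPM. It was also past it in CGRP against zoledronate at week 12, at 220 CPM in CGRP. Control at week 12 was higher than all of these, at 287 CPM. The shares of all genes are those given for Pdk3.

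**Figure D5:**
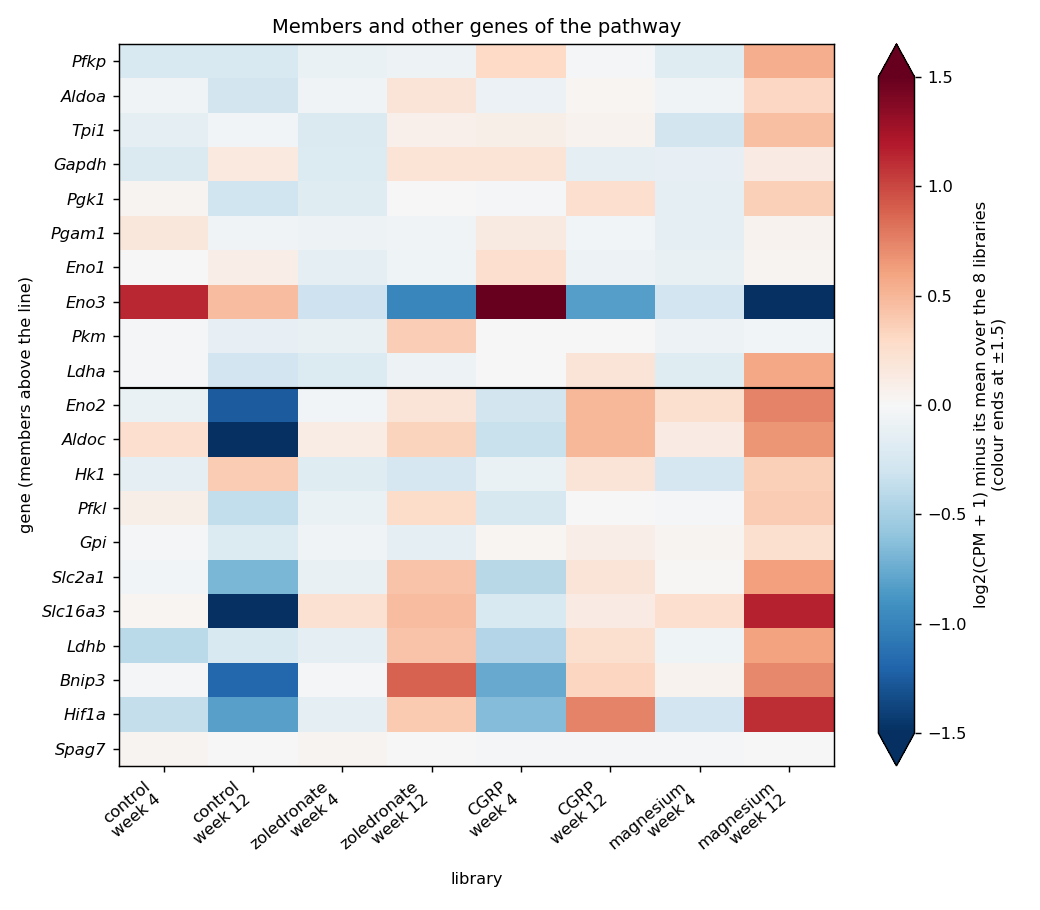
Log2 of CPM plus 1 for each gene (rows) minus its mean over the 8 libraries (columns), red above and blue below the mean, with the 10 members above the line and other genes of the pathway, hypoxia genes and Spag7 below it. Eno3 is deepest red in CGRP at week 4 and deepest blue in magnesium at week 12, Slc16a3, Eno2 and Ldha are reddest in magnesium at week 12, and Spag7, which overlaps Eno3 in the annotation, is flat.

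By the same likeness measure, the 5 genes nearest to Eno1 were Cox20 (0.030), Gcsh (0.038), Reep5, Exosc4 and Psmd9 (0.046 each), against a mean absolute deviation of 0.10 for Eno1. Those nearest to the sum of the 10 members were Hsd17b10 (0.051), Ptms (0.060), Ptov1 (0.061), Tbcb (0.062) and Ndufs4 (0.064), against 0.11 for the sum. Such small distances are to be read against profiles that were nearly flat.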

How the data were processed

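Single-cell RNA sequencing libraries of rat fracture callus cells were analysed, 1 for each of 4 treatments at 2 weeks. The authors deposited 1 table of raw UMI counts per library, genes by barcodes; STAR and Rnor_6.0 are named, without versions or roles, per the submitters' processing notes. The sources used here do not give cell calling, filters or gene annotation. No gene was listed with under 5 cells and no barcode with under 500 genes, and 0 mitochondrial genes were listed. Barcodes with at least 5000 UMIs were kept, without removing doublets. UMIs were summed per library and scaled to CPM. Ratios are log2 of CPM plus 1, called at 1.5-fold and tested on simulated data. Folds are of CPM without the pseudocount. Intervals are exact Poisson or Clopper-Pearson at 95%. For cell shares, each cell was thinned to 5000 UMIs (seed 7, numpy 2.4.6, scipy 1.17.1). Scaling factors came from edgeR 4.0.16 and DESeq2 1.42.0. No differential test was run. Named genes were all 10 members, genes of the fixed lists, and for Eno3, Eno1 and the summed members the 5 genes with a mean of at least 50 CPM nearest in centred log2 level. The members and lists were chosen with earlier results of these data known. Sequences are from RefSeq (GRCr8), matched by symbol; no other coordinates are given, since that build differs from the files'.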

Additional observations from a re-analysis of the deposited data

Results flagged for a closer look

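Some members differed in opposite directions in 2 groups under the same contrast, by at least 1.5-fold between the groups and with counting intervals clear of no difference. With 1 library per group these differences were not tested. For CGRP against zoledronate, Gapdh was at 0.42 on the log2 scale at week 4 and -0.35 at week 12. For magnesium against zoledronate, Pfkp was at -0.081 at week 4, then 0.61 at week 12. For week 12 against week 4, Gapdh was higher in control (0.36), zoledronate (0.42) and magnesium (0.25) and lower in CGRP (-0.35). Over the same interval Pgk1 was lower in control (-0.34) and higher in CGRP (0.28) and magnesium (0.51), and Ldha was lower in control (-0.27) and higher in magnesium (0.76). Pfkp was lower in CGRP (-0.32) and higher in magnesium (0.73), and Tpi1 was at -0.037 in CGRP and 0.73 in magnesium. Eno3 is not among these. It was lower at week 12 in all 4 treatments. For magnesium against zoledronate it was at 0.017 at week 4 and -0.58 at week 12, but its week 4 interval (0.957–1.07 as a fold) included no difference.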

How the results depend on the processing

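No paired analysis was possible because the groups share only 1 replicate number. The libraries can be paired by treatment across weeks, but that would take the 4 treatments as replicates and was not run. No library could be left out, since each group is 1 library. Under 9 alternatives, 0 of the 12 member ratios past 1.5-fold turned direction, and Eno3 kept each of its calls. The count for zoledronate against control at week 12 went from 1 to 3 with TMM factors and to 3 with DESeq2 size factors (Aldoa and Pkm added), and to 2 without cells with a UMI of Mki67 or Top2a (Pkm added). The count for magnesium against zoledronate at week 12 went from 2 to 1 with cells thinned, with the mean over single cells and without those cells, each time by losing Pfkp (0.56, 0.55 and 0.58). With TMM and DESeq2 factors Pfkp was lost there too and Eno3 gained (-0.63 and -0.64). The Eno3 share of Eno1 plus Eno3 left its counting interval in 15 cases. Without cells with Mki67 or Top2a it was 3.56%, 1.46%, 7.31% and 1.35% at week 4 (control, zoledronate, CGRP, magnesium) and 2.26%, 0.814% and 0.947% at week 12 (control, zoledronate, CGRP). With the mean over single cells it was 1.53% (zoledronate) and 1.503% (magnesium) at week 4, then 0.871% (zoledronate) and 0.980% (CGRP) at week 12. With cells thinned it was 1.51% (zoledronate) and 1.48% (magnesium) at week 4, then 0.924% in CGRP at week 12, and with cells of at least 10000 UMIs 1.10% there. The share of all genes past 1.5-fold stayed within 1.5 times under other minimum levels. The causes were not tested.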

Other observations

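The 4416 barcodes under 5000 UMIs, left out above, had less of the 10 genes in sum than the kept cells in 8 of 8 libraries (0.640 to 0.919 times). Gapdh (0.442 to 0.818 times) and Tpi1 (0.510 to 0.786 times) were among the lower ones. Pfkp was the exception, at 1.34 to 2.82 times its level in the kept cells in 8 of 8 libraries, and within the kept cells it was also lower in the third with the most UMIs than in the third with the fewest in 8 of 8 (0.597 to 0.968 times). Eno3, by contrast, was higher in the third with the most UMIs in 7 of 8 libraries, with CGRP at week 4 the exception (0.836 times).

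Cells in division differed from the rest in single enzymes and in both directions. In cells with a UMI of Mki67 or Top2a, Tpi1 (1.19 to 1.38 times) and Pgam1 (1.13 to 1.30 times) were higher in 8 of 8 libraries, while Aldoa was lower in 8 of 8 (0.787 to 0.924 times).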
